A study of Mus musculus with 12 samples.

Results

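The S100 genes were chosen by name from the deposited count table: the 8 genes *S100a1*, *S100a4*, *S100a6*, *S100a10*, *S100a11*, *S100a13*, *S100a16* and *S100b*, out of 55487 gene identifiers. Their transcripts were measured by RNA-seq in the mouse lens at P7, that is 7 days after birth, with 3 libraries for each of 4 genotypes on the B6J background, 12 in all. The genotypes were wild-type, *Trpm3*-KO (mice in which homologous recombination placed a reporter cassette in *Trpm3*), *Trpm3*-I/M (mice heterozygous for the I65M missense substitution made by gene editing) and *Trpm3*-M/M (mice homozygous for it), and the last 3 are called KO, I/M and M/M from here on. TRPM3 is a cation channel that admits calcium, the substitution causes cataract, and the design asks how the mutant channel and the loss of the channel each affect lens gene expression. Every library was described as a pool of 4 lenses from males and 4 from females, so that individual animals cannot be told apart. Libraries held 56162198 to 82090234 counts on genes.

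S100 proteins are small calcium-binding proteins of the EF-hand type that mostly work as dimers. On binding calcium they expose a surface that docks onto other proteins, among them annexins, nonmuscle myosin and ion channels, and so pass a calcium signal on. S100A1 is known to share a binding region with calmodulin on the N terminus of TRPM3. S100A10 is the exception in the family, since it does not need calcium and sits in a complex with annexin A2.

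7 of the 8 genes lie on mouse chromosome 3 (GRCm38, GENCODE annotation) and *S100b* lies on chromosome 10, at 76253853 to 76261159. *S100a1* runs on the reverse strand from 90511034 to 90514392 and *S100a13* on the forward strand from 90514435 to 90524581, so that their starts face away from each other across 42 bases. *S100a16* (90537254 to 90543151), *S100a4* (90603771 to 90606045) and *S100a6* (90612882 to 90624181) follow on the forward strand, with 6836 bases between the last 2. *S100a11* (93520488 to 93526287) and *S100a10* (93555080 to 93564643) form a second group 2896306 bases further on, 28792 bases apart from each other. An overlapping gene model, *Gm42674*, shares 302 of the 584 exon bases of *S100a4* and had 0 counts.

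3 start regions are printed, of genes on chromosome 3 that responded unequally: *S100a4*, which rose strongly in M/M lenses, *S100a11*, which rose weakly, and *S100a13*, whose window also covers the gap to *S100a1*. Whether these sequences bear on the responses was not tested. The sequences are those of RefSeq for GRCm38, 250 bases before to 50 bases after a start site, and 7 of the 8 genes were matched (*S100a10* was not). In *S100a4* the capitals mark a TATA box, in *S100a11* GC boxes and AP-1 sites, and in *S100a13* the bases between the annotated starts of *S100a1* and *S100a13*.
S100a4 chr3:90603520-90603819, forward strand: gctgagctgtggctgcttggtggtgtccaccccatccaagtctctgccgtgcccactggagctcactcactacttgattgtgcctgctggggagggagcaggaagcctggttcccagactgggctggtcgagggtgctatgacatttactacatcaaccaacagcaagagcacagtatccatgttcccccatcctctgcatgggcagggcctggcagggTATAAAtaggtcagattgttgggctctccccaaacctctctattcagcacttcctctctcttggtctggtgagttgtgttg
S100a11 chr3:93520246-93520545, forward strand: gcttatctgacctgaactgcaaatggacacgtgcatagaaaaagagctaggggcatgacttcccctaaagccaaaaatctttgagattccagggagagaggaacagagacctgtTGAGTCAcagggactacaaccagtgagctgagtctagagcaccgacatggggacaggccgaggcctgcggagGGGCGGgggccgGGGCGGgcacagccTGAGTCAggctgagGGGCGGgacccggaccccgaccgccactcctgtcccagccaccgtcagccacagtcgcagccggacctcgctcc
S100a13 chr3:90514185-90514484, forward strand: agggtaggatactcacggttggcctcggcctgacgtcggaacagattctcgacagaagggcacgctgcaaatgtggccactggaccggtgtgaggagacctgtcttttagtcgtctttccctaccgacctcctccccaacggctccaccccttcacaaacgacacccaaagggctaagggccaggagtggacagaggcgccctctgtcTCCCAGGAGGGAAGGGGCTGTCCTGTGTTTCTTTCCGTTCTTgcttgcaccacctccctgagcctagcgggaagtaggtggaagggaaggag

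The motif TATAAA was searched on both strands and was found in 1 of the 8 windows of the members (*S100a16* has 2 windows), that of *S100a4*, 31 bases before the start site, against 13.6% of 32851 mouse windows of the same length. The AP-1 motif TGANTCA was found in the *S100a11* window, at 2 places, and in a window of *S100a16*, against 7.8% of all windows. The GC box GGGCGG was found in the same 2 windows, at 3 places in *S100a11*, against 35.7% of all windows. The TEAD motif CATTCC was in no member window and in 14.7% of all windows. The matches of different motifs did not overlap. The windows of *S100a1* and *S100a13* share 204 bases, and neither holds any of the 4 motifs.

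The targeted gene was read first as a check on the labels. *Trpm3* stood at 269 ± 17.3 CPM (counts scaled to a common library total, with TMM factors, SD, n = 3) in wild-type and at 95.3 ± 5.02 CPM in KO lenses, a log2 fold change of -1.49 (adjusted p = 3.36e-09). It stood at 387 ± 23.4 CPM in I/M and 475 ± 8.01 CPM in M/M lenses, both above wild-type (adjusted p = 1.62e-05 and 5.84e-08). One library went against its description: I/M replicate 3 had 0.0721 CPM of *Xist*, the transcript of the inactive X chromosome, where the other 11 libraries had 45.8 to 305 CPM, and it had the highest summed Y-linked transcripts (69.1 CPM against 21.6 to 50.6). Its pool of both sexes is therefore in doubt, and the changes of the members, the calls of their partners and the marker sums were also computed without it. Lens fiber markers were the most abundant of the cell type lists in every library, at 22100 CPM or more in sum.

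In wild-type lenses the levels of the S100 genes per kilobase of exon spanned from 129 ± 10.6 CPM per kb for *S100a4* to 0.104 ± 0.0135 CPM per kb for *S100b* (SD, n = 3). *S100a11* followed *S100a4* at 98.1 ± 5.17 and *S100a6* came next at 73.4 ± 8.46 CPM per kb. These 3 lay above 96.4% or more of the 8980 genes tested that have a length. *S100a10* stood at 8.91 ± 0.967, *S100a16* at 3.44 ± 0.115, *S100a1* at 1.57 ± 0.16 and *S100a13* at 0.197 ± 0.0459 CPM per kb. The ranges of neighbors in this order did not overlap in wild-type libraries.

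The order was not the same in M/M lenses. *S100a6*, at 163 to 238 CPM per kb, stood above *S100a11*, at 115 to 147 CPM per kb, where in wild-type *S100a11* was the higher (93.6 to 104 against 63.7 to 79.3). Likewise *S100a1*, at 5.39 to 8.33 CPM per kb, stood above *S100a16*, at 3.78 to 4.47, where in wild-type it had been at 1.42 to 1.74 against 3.33 to 3.56. In I/M lenses both pairs overlapped, with *S100a6* at 84.5 to 117 and *S100a11* at 96.7 to 111, and *S100a1* at 2.43 to 3.9 and *S100a16* at 3.04 to 3.74 CPM per kb, and they also overlapped without I/M replicate 3. *S100a4* had the highest level per kilobase in each genotype.

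**Figure D1:**
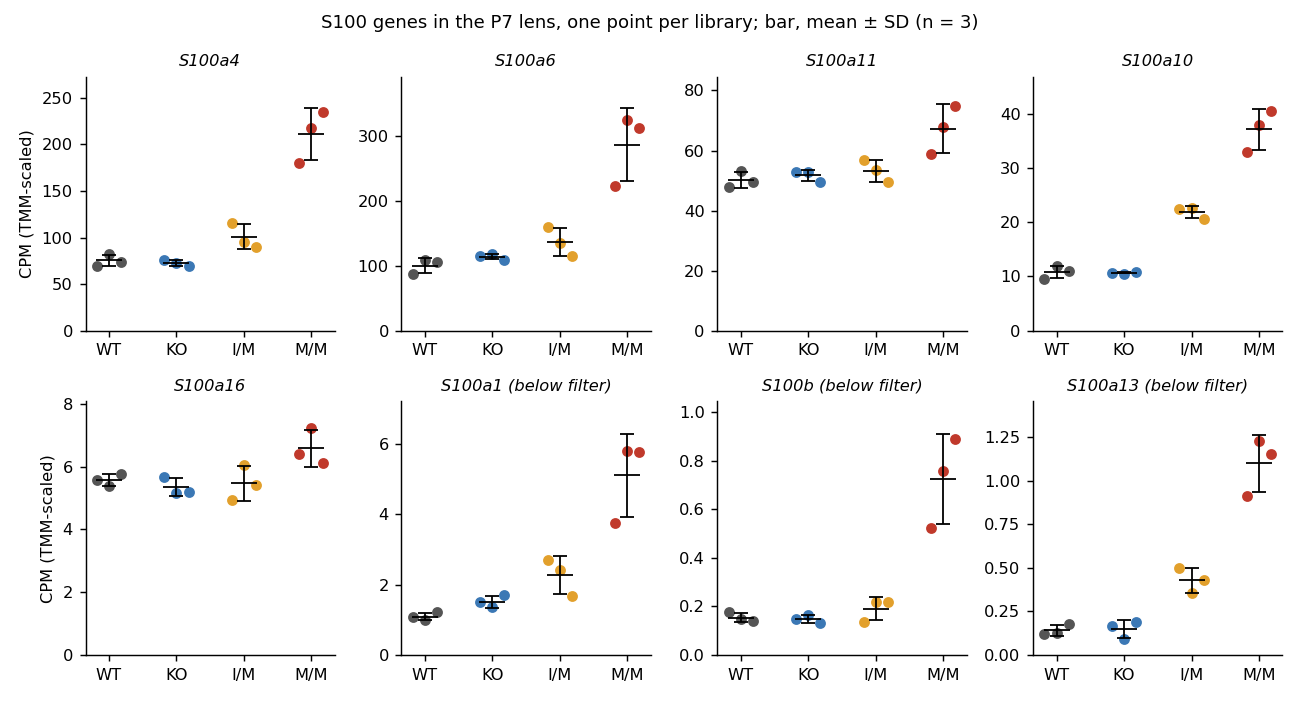
Levels of the 8 S100 genes in CPM scaled with TMM factors (vertical axes, linear and starting at 0, each with its own scale) by genotype. Points are libraries and bars are the mean ± SD of 3 libraries. Wild-type and KO points lie at similar heights for *S100a4*, *S100a10* and *S100a11*, M/M points lie above all others for each gene, and the 5 genes in the first panels passed the filter.

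To find the effect of 2 mutant copies, M/M lenses were compared with wild-type. All 5 S100 genes that passed the filter on low counts (CPM of at least 5 in at least 3 libraries, 8984 genes) were higher in M/M lenses at an adjusted p of at most 0.05, where 31.4% of all genes tested were higher. 3 of them, *S100a4*, *S100a6* and *S100a10*, also passed a fold change of 2, which 6.42% of all genes tested did in that direction. Their median log2 fold change was 1.48, against 0 over all genes tested. In all 5 the groups did not overlap, as was so in that direction for 32.8% of all genes tested. Adjusted p-values come from the quasi-likelihood fit in edgeR and were adjusted by the Benjamini-Hochberg method.

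*S100a10*, the annexin A2 partner, had the largest rise of the 5. Its level was 9.54, 11.8 and 11 CPM in wild-type replicates 1 to 3 and 33, 38.1 and 40.6 CPM in those of M/M. The groups lay far apart, with a log2 fold change of 1.79 (SE 0.08, adjusted p = 1.01e-09), a 3.45-fold rise.

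*S100a6*, or calcyclin, is common in cells that divide and binds the calcyclin-binding protein *Cacybp*. It measured 87, 108 and 105 CPM in wild-type and 223, 326 and 313 CPM in M/M libraries. The log2 fold change was 1.52 (SE 0.14, adjusted p = 7.25e-07). *S100a4*, which binds the heavy chain of nonmuscle myosin and is known for its link to cell migration, measured 69.8, 82 and 74 CPM in wild-type and 180, 218 and 234 CPM in M/M libraries. Its log2 fold change was 1.48 (SE 0.11, adjusted p = 6.03e-08). For both genes the lowest M/M library was replicate 1, as it was for 7 of the 8 members, and it still lay above every wild-type library.

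*S100a11*, a binding partner of annexin A1, rose less. It went from 47.8, 53 and 49.5 CPM in wild-type to 58.9, 68 and 75 CPM in M/M libraries, a log2 fold change of 0.42 (SE 0.08, adjusted p = 0.000414). The deposited values of *S100a11* were fractional in all 12 libraries and those of the other 7 members in none, so that part of its reads were assigned in shares and its level is uncertain to that extent. *S100a16* measured 5.58, 5.38 and 5.75 CPM in wild-type and 6.4, 7.22 and 6.11 CPM in M/M libraries. Its log2 fold change of 0.24 (SE 0.09, adjusted p = 0.0352) was the smallest, and the call was lost without any 1 of the wild-type libraries (adjusted p = 0.0743, 0.104 and 0.051 without replicates 1, 2 and 3), without M/M replicate 2 (0.104) and under 3 other settings (0.0506 to 0.0669).

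The remaining members did not pass the filter, and their rises are described from the counts with a fit that used no filter (32266 genes). All 3 were higher in M/M than in wild-type lenses in that fit, where 15.9% of genes were, and all 3 were past 2-fold, where 7.89% were. *S100a1*, a regulator of the sarcoplasmic calcium pump in muscle, had 55, 47 and 61 counts in wild-type and 299, 533 and 512 counts in M/M libraries. Its level went from 1.09 ± 0.111 to 5.1 ± 1.18 CPM, and 2 of the M/M libraries reached the filter's CPM of 5. The log2 fold change was 2.21 (SE 0.15, adjusted p = 1.87e-49), with an adjusted p of 6.46e-07 when genes with a CPM of at least 1 were kept and 3.2e-21 by DESeq2.

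*S100a13*, which takes part in the release of fibroblast growth factor 1, had 6, 6 and 9 counts in wild-type and 73, 113 and 102 counts in M/M libraries. Its log2 fold change of 2.93 (SE 0.33, adjusted p = 1.3e-17, and 5.05e-07 with the CPM minimum of 1) was the largest of the 8. It reached that minimum in M/M libraries alone, so that its entry there depended on the group in which it was high. *S100b*, best known from glia, had 9, 7 and 7 counts in wild-type and 42, 70 and 79 counts in M/M libraries, with a log2 fold change of 2.21 (SE 0.36, adjusted p = 7.95e-09, and 3.77e-06 by DESeq2). These wild-type counts are small, so the sizes of both rises are imprecise. *S100b* lies within *Dip2a*, a gene on the opposite strand, without sharing exon bases with it.

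With 1 mutant copy, fewer of the genes differed from wild-type. In I/M lenses 3 of the 5 genes tested were higher, where 17.3% of all genes tested were, and 1, *S100a10*, passed both thresholds, where 2.58% of all genes did. The median log2 fold change of the 5 was 0.42, against 0 over all genes tested. *S100a10* measured 22.4, 22.7 and 20.6 CPM, all above the highest wild-type library, with a log2 fold change of 1.02 (SE 0.09, adjusted p = 1.09e-06). It fell below 2-fold without wild-type replicate 1 or without I/M replicate 2.

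*S100a4* measured 116, 95.6 and 89.9 CPM in I/M libraries, a log2 fold change of 0.42 (SE 0.11, adjusted p = 0.00856). The groups did not overlap, as was so for 23.1% of all genes tested. *S100a6* measured 160, 135 and 115 CPM, a log2 fold change of 0.45 (SE 0.14, adjusted p = 0.0251). The call of *S100a6* was lost without wild-type replicate 1 (adjusted p = 0.104) and without I/M replicate 1 (0.111) or 2 (0.0556). Without I/M replicate 3, the library of doubtful composition, both log2 fold changes were larger, at 0.49 for *S100a4* (adjusted p = 0.00565) and 0.56 for *S100a6* (adjusted p = 0.0113), and that of *S100a10* was 1.06 (adjusted p = 3.37e-06).

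*S100a11* and *S100a16* did not pass the test in I/M lenses, at log2 fold changes of 0.09 (95% confidence interval -0.08 to 0.26) and -0.03 (-0.23 to 0.17). With library size as the only scaling, which moved the median of all genes by 0.2 in this comparison, *S100a11* stood at 0.29 (adjusted p = 0.00988) and *S100a16* at 0.17 (adjusted p = 0.152). In the fit without a filter, *S100a1* and *S100a13* were higher in I/M lenses, where 7.74% of genes were. *S100a1* had 201, 199 and 117 counts, a log2 fold change of 1.08 (SE 0.16, adjusted p = 1.43e-10, and 0.00252 with the CPM minimum of 1). *S100a13* had 37, 29 and 30 counts, a log2 fold change of 1.61 (SE 0.37, adjusted p = 0.000178). *S100b* had 10, 18 and 15 counts and did not pass (log2 fold change 0.32, 95% confidence interval -0.51 to 1.15, adjusted p = 0.754). Without I/M replicate 3 these 5 genes kept their side of the threshold, with *S100a11* at 0.14 (adjusted p = 0.268), *S100a16* at -0.02 (0.917), *S100a1* at 1.25 (2.97e-12), *S100a13* at 1.6 (0.000646) and *S100b* at 0.23 (0.937).

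Loss of the channel gave a different picture. In KO lenses 0 of the 5 genes tested passed the edgeR test, where 2.16% of all genes were higher and 2.2% lower, and 0 of the 5 were at an unadjusted p under 0.05 or were called by DESeq2. *S100a10* measured 10.7, 10.5 and 10.7 CPM against 10.8 ± 1.17 CPM in wild-type, with a log2 fold change of -0.02 and a 95% confidence interval of -0.21 to 0.18. The interval was -0.29 to 0.17 for *S100a4*, -0.13 to 0.22 for *S100a11* and -0.27 to 0.15 for *S100a16*, each of which leaves out the change measured in M/M lenses. *S100a6*, at 115, 118 and 110 CPM, lay above all wild-type libraries, with a log2 fold change of 0.19 (95% confidence interval -0.11 to 0.49, adjusted p = 0.527), and 11.4% of all genes had groups that did not overlap in that direction. *S100a1* had 80, 75 and 90 counts, above the wild-type libraries in CPM as well, and did not pass in the fit without a filter (log2 fold change 0.46, adjusted p = 0.121). Its 95% confidence interval there was 0.13 to 0.79, which leaves out 0, and its unadjusted p was 0.00598. With the CPM minimum of 1 its adjusted p was 0.345. Intervals and p-values from the fit without a filter do not measure the spread between pools. *S100a13*, with 9, 5 and 10 counts, and *S100b*, with 8, 9 and 7 counts, were at log2 fold changes of 0.07 (95% confidence interval -0.82 to 0.95) and -0.06 (-0.97 to 0.84).

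**Figure D2:**
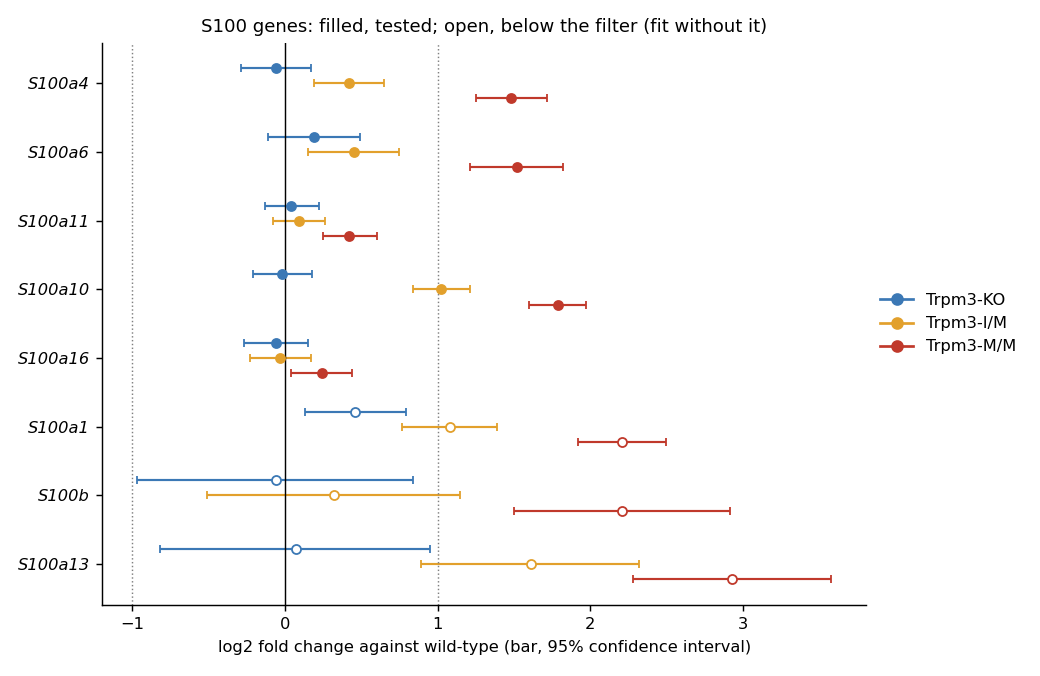
Log2 fold changes of the 8 S100 genes against wild-type (horizontal axis) with 95% confidence intervals for KO, I/M and M/M lenses. Dotted lines mark a 2-fold change, and open points are genes that missed the filter, from the fit without it. The intervals of open points do not measure the spread between pools. M/M points lie furthest to the right for every gene, from 0.24 for *S100a16* to 2.93 for *S100a13*, and each KO interval except that of *S100a1* (0.13 to 0.79) includes 0.

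The 2 mutant genotypes were compared with each other directly. All 5 genes tested were higher in M/M than in I/M lenses, where 25.6% of all genes tested were, and 2, *S100a4* and *S100a6*, passed 2-fold, where 3.67% did. Both had a log2 fold change of 1.07 (adjusted p = 2.98e-06 and 3.48e-05). Without I/M replicate 3 these were 0.99 and 0.96, so that 0 of the 5 passed 2-fold, and without M/M replicate 2 the count was 1. *S100a10* differed by 0.76 (adjusted p = 4.05e-06), *S100a11* by 0.34 (adjusted p = 0.0031) and *S100a16* by 0.27 (adjusted p = 0.0222). The call of *S100a16* was lost without I/M replicate 1 (adjusted p = 0.0972), without I/M replicate 3 (0.0583), without M/M replicate 2 (0.0782), with no filter on low counts (0.0601) and with only the genotypes compared in the fit (0.052). Without I/M replicate 3, *S100a10* differed by 0.72 (adjusted p = 3.86e-05) and *S100a11* by 0.29 (adjusted p = 0.0173).

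The heterozygous change was a different share of the homozygous one from gene to gene. On the log2 scale it was 57% for *S100a10*, 54.9% for *S100a13* and 48.9% for *S100a1*, but 29.6% for *S100a6*, 28.4% for *S100a4*, 21.4% for *S100a11* and 14.5% for *S100b*, and -12.5% for *S100a16*. The heterozygous changes of *S100a11*, *S100a16* and *S100b* did not pass the test. Without I/M replicate 3 the shares were 59.2% for *S100a10*, 56.6% for *S100a1*, 54.6% for *S100a13*, 36.8% for *S100a6*, 33.3% for *S100a11*, 33.1% for *S100a4*, 10.4% for *S100b* and -8.33% for *S100a16*. Numerator and denominator share the wild-type libraries, and the shares are a description.

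M/M lenses were also set against KO lenses, which asks whether the mutant channel differs from an absent one. All 5 genes tested were higher in M/M lenses, where 32.3% of all genes were, and *S100a4*, *S100a6* and *S100a10* passed both thresholds, where 6.85% did. The log2 fold change was 1.81 for *S100a10*, 1.54 for *S100a4* and 1.33 for *S100a6* (adjusted p = 7.54e-10, 3.95e-08 and 2.38e-06). *S100a11* differed by 0.38 (adjusted p = 0.000925) and *S100a16* by 0.3 (adjusted p = 0.0109). In the fit without a filter, *S100a1* differed by 1.75, *S100a13* by 2.87 and *S100b* by 2.28, each past the test, as 17% of genes were in that direction.

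Ratios between neighboring genes show where members of a pair moved unequally. The count of *S100a10* per count of *S100a11* was 0.199, 0.224 and 0.223 in wild-type, 0.395, 0.424 and 0.417 in I/M, and 0.561, 0.56 and 0.541 in M/M libraries. The 3 groups did not overlap, while KO libraries, at 0.198 to 0.217, overlapped with wild-type. *S100a6* per *S100a4* stood at 1.25 to 1.42 in wild-type and at 1.24 to 1.5 in M/M libraries (exact permutation test, two-sided, p = 0.8), so that a difference in how far the 2 rose was not detectable. In KO libraries that ratio was 1.53 to 1.63, above wild-type.

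*S100a1* per *S100a13*, the pair with divergent starts, was 6.78 to 9.17 in wild-type and 4.1 to 5.02 in M/M libraries. With 3 libraries against 3, the exact permutation test cannot go below p = 0.1, which was reached for *S100a10* per *S100a11* in both mutants, *S100a6* per *S100a4* in KO and *S100a1* per *S100a13* in M/M lenses (0.22 after Benjamini-Hochberg adjustment over 9 ratio comparisons).

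Across the 12 libraries the log2 CPM of the 5 tested genes correlated with each other at Pearson's r of 0.607 to 0.979 (median 0.877 over 10 pairs). The libraries share 4 genotypes, so these values describe profiles over groups and no p is given. The genes closest to *S100a4* in profile among 8983 compared were *Lmna* (r = 0.9957), *Itm2b* (0.992) and *Pgam1* (0.9915). Those closest to *S100a6* were *Selenow* (0.9886), *Gpx4* (0.9872) and *Itm2b* (0.9852), and those closest to *S100a10* were *Ero1l* (0.9929), *Gm11837* (0.9924) and *Timp2* (0.9922). Between the outermost members on chromosome 3 the annotation holds 106 other genes, of which 2 were tested, and 0 of these passed both thresholds against wild-type.

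The 10 other S100 family genes were all below the filter. *S100a7a* had the most counts, 24 over the wild-type, 34 over the KO, 42 over the I/M and 28 over the M/M libraries. *S100a2* (7 counts), *S100a3* (6 counts) and *S100a8* (2 counts) were counted only in M/M libraries. *S100a9*, the neutrophil partner of *S100a8*, had 1 count in wild-type and 6 in M/M libraries, *S100a14* had 1 in I/M and 4 in M/M libraries, and *S100a5* had 1 in a KO library. *S100g*, *S100z* and *S100a7l2* were at 0 in all 12 libraries. A count of 0 in a library allows up to 3 counts there, for counting error only.

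S100 proteins act through the proteins they bind, so the partners were read from lists of annexins, of the S100A10 complex, of other binding partners and of receptors for secreted S100 proteins. Of 7 annexins tested out of 12 listed, 4 were higher and 1 was lower in M/M lenses, where 31.4% of all genes tested were higher and 31.4% lower, with a median log2 fold change of 0.72. *Anxa2*, which joins S100A10 in a membrane-binding complex, rose from 38.5 ± 2.69 CPM in wild-type to 106 ± 10.5 in I/M and 164 ± 16.6 CPM in M/M lenses. Its log2 fold changes were 1.46 and 2.09 (adjusted p = 4.23e-08 and 2.73e-10), and it was also higher in KO lenses, by 0.47 (adjusted p = 0.00441), where *S100a10* was not called.

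*Anxa6* rose by 1.29 in M/M (adjusted p = 1.05e-10) and by 0.93 in I/M lenses (adjusted p = 1.42e-08) and was at 0.02 in KO lenses. *Anxa5* was higher in M/M lenses (0.97, adjusted p = 1.69e-07) and fell by 1.1 on the log2 scale in KO lenses (adjusted p = 2.72e-06). *Anxa1*, the partner of S100A11, was at 0.05 in M/M lenses (adjusted p = 0.738) and *Anxa11*, a partner of S100A6, at -0.03 (adjusted p = 0.832), while *Anxa11* was lower in I/M lenses (-0.59, adjusted p = 0.00136). The annexins that complete the count in M/M lenses are *Anxa7*, which was higher, and *Anxa3*, which was lower, both named after their values were seen.

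Of the 15 genes listed for the S100A10 complex and its cargo, 9 did not pass the filter. The 6 tested were higher in M/M lenses, where 31.4% of all genes tested were, and 3 were higher in I/M lenses, where 17.3% were. Of these 6, *Plat* and *Dlc1* reached the CPM minimum only in M/M libraries and *Kcnk3* only in the libraries of both mutants, so that their being tested depended on the groups in which they were high. *Kcnk3*, which encodes the potassium channel TASK-1 whose surface level S100A10 affects, went from 1.58 ± 0.198 CPM in wild-type to 29.8 ± 1.68 in I/M and 24.8 ± 3.62 CPM in M/M lenses, log2 fold changes of 4.24 and 3.98 (adjusted p = 1.28e-10 and 4.38e-11). *Dlc1*, whose protein binds S100A10, rose by 1.76 in I/M and 3.72 in M/M lenses (adjusted p = 0.000262 and 1.83e-08). *Plat*, tissue plasminogen activator, rose by 2.51 in M/M (adjusted p = 2.05e-07), was at -0.44 in I/M (adjusted p = 0.173) and fell by 1.04 in KO lenses (adjusted p = 0.0399). *Ahnak*, a giant scaffold protein bound by S100A10 with annexin A2, was higher by 0.95 in M/M (adjusted p = 0.000576) and at -0.05 in I/M lenses (adjusted p = 0.858).

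Of 21 other binding partners tested out of 28, 14 were higher and 4 lower in M/M lenses, 7 higher and 2 lower in I/M lenses, and 1 higher and 1 lower in KO lenses. Of all genes tested, 31.4% were higher and 31.4% lower in M/M, 17.3% higher and 15.3% lower in I/M, and 2.16% higher and 2.2% lower in KO lenses. Among the 14 higher in M/M lenses, *Stk38l* (named after its value was seen) reached the CPM minimum only in M/M libraries. Its being tested thus depended on the group in which it was high. *Tpm1*, a tropomyosin, rose by 1.49 in M/M lenses (adjusted p = 1.01e-09), and was the one higher in KO lenses (0.48, adjusted p = 0.00112), the lower one being *Trpm3*. *Trpm3*, the targeted gene itself, is also among those counted as higher in M/M and in I/M lenses. *Myh14*, a nonmuscle myosin heavy chain, rose by 1.09 (adjusted p = 1.05e-07), and *Myh9*, the main myosin partner of S100A4, by 0.89 (adjusted p = 4.29e-07, named after its value was seen). *Fgf1*, the growth factor whose release S100A13 takes part in, fell by 1.16 on the log2 scale in M/M lenses (adjusted p = 6.35e-05), opposite in direction to *S100a13*. *Fgf1* reached the CPM minimum in 2 wild-type libraries and 1 KO library, and in 0 libraries of either mutant. That it was tested thus depended on the groups in which it was high. *Cacybp*, the S100A6 partner, was at 0.14 (adjusted p = 0.0286) and *Atp2a2*, the calcium pump of the endoplasmic reticulum, at 0.48 (adjusted p = 2.51e-06), both higher in M/M lenses. Of 8 receptors listed for secreted S100 proteins, the 2 tested, *Bsg* and *Fgfr1*, were higher in both mutants (31.4% of all genes tested were in M/M and 17.3% in I/M lenses), both named after their values were seen, and the other 6, among them *Ager*, did not pass the filter. Without I/M replicate 3, the one partner whose call changed in I/M lenses was *Fgf1*, from -0.57 (adjusted p = 0.0209) to -0.41 (adjusted p = 0.0757).

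**Figure D3:**
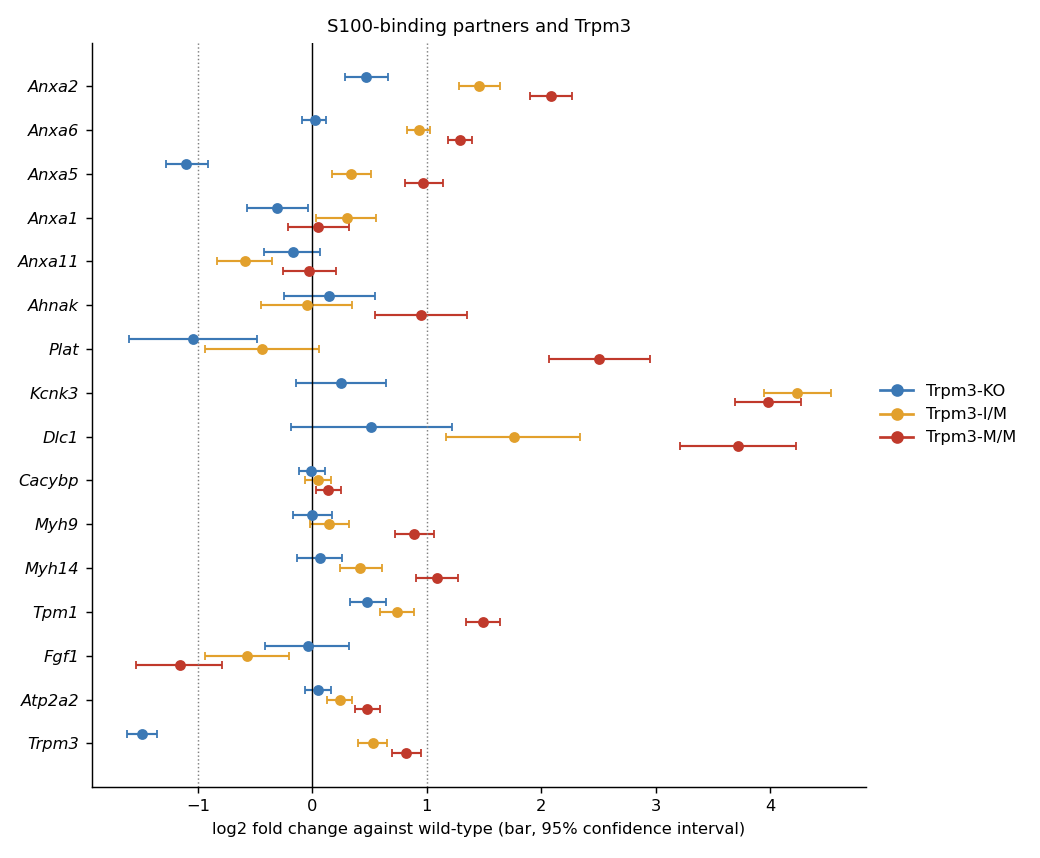
Log2 fold changes against wild-type (horizontal axis) with 95% confidence intervals for 15 partners of S100 proteins and *Trpm3*, in KO, I/M and M/M lenses; dotted lines mark a 2-fold change. *Anxa2*, *Kcnk3* and *Dlc1* lie beyond 2-fold in both mutants, *Fgf1* lies to the left of 0 in M/M lenses at -1.16, and *Trpm3* lies at -1.49 in KO lenses.

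Because S100 genes are active in many cell types, markers of cells other than lens fibers and epithelium were read in the same libraries. In bulk RNA, fewer or more cells of a type and less or more RNA per cell cannot be told apart. Lens fiber markers (9 of 9 counted) summed to 41000 to 46500 CPM in wild-type, 39900 to 40900 in KO, 34700 to 36900 in I/M and 22100 to 24900 CPM in M/M libraries. Lens epithelium markers (8 of 8, *Trpm3* among them) summed to 706 to 758, 533 to 535, 758 to 805 and 862 to 919 CPM in the same order of groups. Without *Trpm3*, the targeted gene, their sums were 455 to 488, 435 to 443, 382 to 417 and 389 to 434 CPM. In M/M lenses 3 of the 7 epithelium markers tested were lower, *Foxe3* (-2.24, adjusted p = 4.57e-09), *Slc38a3* (-1.69, adjusted p = 3.77e-11) and *Pax6* (-0.62, adjusted p = 9.77e-08), and 3 were higher, *Pdpn*, *Cp* and *Trpm3*. Of all genes tested, 31.4% were lower and 31.4% higher in M/M lenses. Each of the 11 marker lists kept its position against wild-type, above, below or overlapping, when I/M replicate 3 was left out.

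Vascular endothelium markers (7 of 7) summed to 5.67 to 8.05 CPM in wild-type, 6.01 to 6.6 in KO, 16.7 to 23.2 in I/M and 41.1 to 47.6 CPM in M/M libraries. *Tek* made up most of this sum in wild-type and I/M lenses, at means of 5.7 and 12.5 CPM, and stood at 11.8 CPM in M/M lenses. Each other endothelium marker had a higher mean in M/M than in I/M lenses. Fibroblast and pericyte markers summed to 92.1 to 101 CPM in wild-type, 78.8 to 85 in KO, 84.9 to 93.9 in I/M and 142 to 195 CPM in M/M libraries, with *Lum* at 0 in wild-type and KO and 9 of 9 counted in both mutants. *Pdgfra* made up most of the wild-type sum, at a mean of 79.4 CPM. It was lower in I/M (65.9) and M/M lenses (39 CPM), as was *Col1a2* in I/M. Each other marker of this list had a higher mean than in wild-type in both mutants, and *Col1a2* did in M/M. *Rgs5* went from 0.507 CPM in wild-type to 5.98 in I/M and 31.1 CPM in M/M, and *Col1a1* from 0.128 to 0.337 and 54.3 CPM. Macrophage markers were at 0.416 to 0.59 CPM in wild-type (*Ptprc* at 0), 0.307 to 0.43 in KO (*C1qc* at 0), 0.998 to 1.06 in I/M and 8.75 to 16.5 CPM in M/M libraries. The part of these cells in the rise of *S100a4*, *S100a6*, *S100a10* and *S100a11* was not tested.

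Schwann cell and melanocyte markers summed to 3.7 to 4.26 CPM in wild-type, 3.66 to 3.91 in KO (*Sox10* at 0), 6.31 to 7.06 in I/M (*Tyr* at 0) and 9.48 to 10 CPM in M/M libraries. *Sox10*, which specifies the neural crest lineage of glia and pigment cells, had 2 counts over the wild-type, 11 over the I/M and 1134 over the M/M libraries, beside 23, 43 and 191 counts of *S100b*. Other markers of this list went differently. *Tyrp1* carried most of the rise of the sum in I/M lenses, at a mean of 4.65 CPM against 2.25 CPM in wild-type, and stood at 1.92 CPM in M/M lenses. *Pmel* (0.826 to 0.723 CPM) and *Tyr* were also lower in mean in M/M than in wild-type lenses, and the remaining markers were higher there. Mueller glia and astrocyte markers (7 of 7) summed to 35.8 to 37.2 CPM in wild-type, 38.8 to 41.7 in KO, 35.4 to 38 in I/M and 52.2 to 54.9 CPM in M/M libraries. From wild-type to M/M lenses the means of *Glul* (7.29 to 21.3 CPM), *Sox9* (0.276 to 5.98 CPM), *Rlbp1* and *Slc1a3* rose. Those of *Gfap* (20.9 to 18.3 CPM), *Aqp4* (6.33 to 5.54 CPM) and *Aldh1l1* (1.56 to 1.09 CPM) fell. The part of glial or pigment cells in the rise of *S100b* was not tested.

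Neutrophil markers, *S100a8* and *S100a9* among them, summed to 0.966 to 2.02 CPM in wild-type, 1.07 to 1.33 in KO, 1.01 to 1.32 in I/M and 1.09 to 1.63 CPM in M/M libraries. Of the 7 genes of this list, 4 were counted in wild-type (*S100a8*, *Ngp* and *Camp* at 0), 2 in each of KO and I/M (*S100a8*, *S100a9*, *Ngp* and *Elane* at 0 in both) and 6 in M/M libraries (*Elane* at 0). *Ltf* made up nearly all of the neutrophil sum, at means of 1.4, 1.2, 1.12 and 1.28 CPM in wild-type, KO, I/M and M/M lenses. Each other neutrophil marker had a mean of 0.0221 CPM or less in every genotype, so that the sum mostly followed 1 gene. Photoreceptor markers (7 of 7) reached 1.51 to 4.13 CPM in M/M against 0.651 to 0.852 CPM in wild-type libraries, and cornea epithelium markers 3.66 to 6.72 against 0.236 to 0.436 CPM, with *Krt12* and *Krt14* at 0 outside M/M. *Aldh3a1* made up most of the cornea sum in M/M lenses, at a mean of 4.32 CPM. *Krt5* stood at 0.424 and *Krt14* at 0.192 CPM there, and *Krt12* had 1 count over the M/M libraries. In KO and I/M libraries the photoreceptor markers stood at 0.526 to 0.886 and 0.701 to 0.766 CPM and the cornea markers at 0.299 to 0.525 and 0.231 to 0.418 CPM. Red blood cell markers (4 of 4) spanned 1.18 to 11.1, 1.07 to 5.32, 4.48 to 12.1 and 11.9 to 13.9 CPM in wild-type, KO, I/M and M/M libraries.

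**Figure D4:**
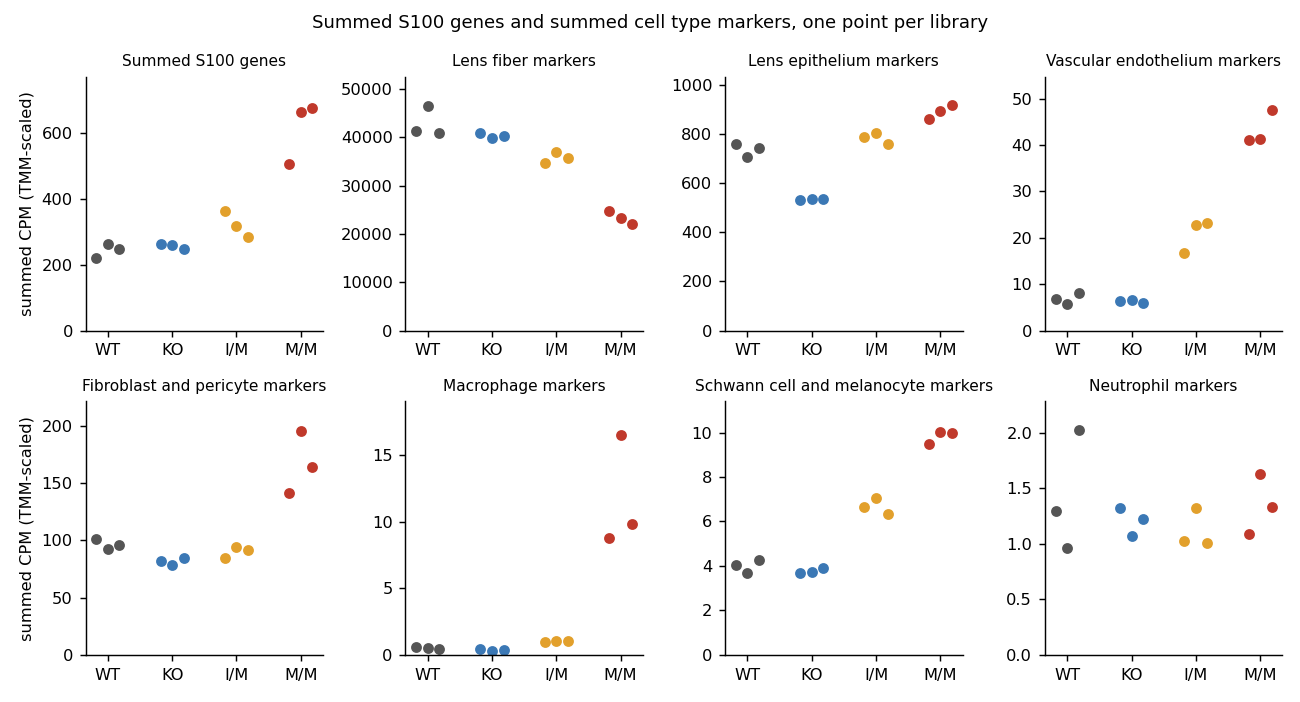
Summed CPM (vertical axes, linear and starting at 0, each with its own scale) of the 8 S100 genes and of 7 lists of cell type markers by genotype, 1 point per library. The summed S100 genes lie at 221.2 to 261.9 CPM in wild-type and 505.8 to 676.5 CPM in M/M libraries, endothelium, macrophage and Schwann cell markers are also highest in M/M libraries, and lens fiber markers are lowest there.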

How the data were processed

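Pooled lens RNA was measured at P7 in 12 libraries. The authors aligned and counted poly-A selected reads with DRAGEN against the Ensembl mouse assembly (mm10) and deposited an estimated count for every gene without normalization, 88.4% of these being whole. Here they were rounded to whole numbers. Library totals ran from 56162198 to 82090234 counts, which limits precision chiefly for *S100a1*, *S100a13* and *S100b*. A second deposited table, with counts, CPM, and the authors' own fold changes and p-values, was not used, and 0 columns of per-sample counts were left out. The tests had been planned for whole counts.

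Genes with a CPM of at least 5 in at least 3 libraries (8984) were scaled with TMM factors and entered one quasi-likelihood fit of all libraries in edgeR 4.0.16 (R 4.3.3), with Benjamini-Hochberg adjustment over all genes tested. A gene passed both thresholds at FDR ≤ 0.05 and FC ≥ 2. In the fit with the filter, p-values measure the spread between these pools, whose animals the sources used here do not list. Those of the fit without a filter were far smaller for M/M against wild-type than with a CPM minimum of 1. They were 1.87e-49 against 6.46e-07 for *S100a1* and 1.3e-17 against 5.05e-07 for *S100a13* (adjusted, edgeR). They are therefore not a measure of the spread between 3 pools. Standard errors and 95% intervals came from the same fits as the p-values, so those of *S100a1*, *S100a13* and *S100b* have the same limit. Sequences are RefSeq's for GRCm38 and positions GENCODE's. The fit was tested on simulated data. A prior count of 2 was used for correlations.

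Members and lists were chosen with earlier results of these data known. Named genes are the members, other S100 genes with a count, partners past both thresholds in a comparison with wild-type, 9 fixed genes (*Anxa1*, *Anxa2*, *Anxa6*, *Anxa11*, *Ahnak*, *Cacybp*, *Fgf1*, *Atp2a2* and *Trpm3*), and the 3 genes most like each member past both thresholds, and others are marked. Markers of cell types, *Sox10* among them, were named from their lists after their values were seen. Alternatives were other scalings, filters, DESeq2 1.42.0, fewer samples in the fit, the replicate number as a block and each library left out. The partner lists and marker sums without *Trpm3*-I/M replicate 3 were added after the data were seen. A marker with 2 identifiers (*Lim2*) and one without a match (*Krt3*) were left out of the lists.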

Additional observations from a re-analysis of the deposited data

How the results depend on the processing

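Counts of S100 genes that passed depended most on the filter, because it decides how many of the 8 enter. Without a filter (8 genes) or with a CPM of at least 1 (7 genes), 6 and 5 passed both thresholds in M/M against wild-type, 5 and 5 were changed and 3 and 3 passed both in I/M against wild-type, 5 and 4 passed both between the mutants, and 6 and 5 passed both against KO, where 8 were changed without a filter. Over all genes, in either direction, 3457 of 32266 and 1634 of 12639 passed both thresholds in M/M against wild-type. The counts past both were 1215 and 663 in I/M against wild-type, 2337 and 1009 between the mutants, and 3840 and 1751 against KO. In I/M against wild-type 4201 and 3715 genes were changed, and against KO 9914 were changed without a filter. *S100a13* reached the CPM of 1 in M/M libraries alone, which is why it entered. Leaving out 1 library gave 0 to 1 past both thresholds in I/M against wild-type (0 without wild-type replicate 1 or I/M replicate 2) and 0 to 2 between the mutants (0 without I/M replicate 3, 1 without M/M replicate 2). Without division by length, 3 of the 8 genes kept their rank. Library size as the only scaling moved the median of all genes by 0.5 in M/M, 0.2 in I/M and 0.05 in KO lenses against wild-type, and turned *S100a16* in I/M to 0.17 and *S100a10* in KO to 0.03. With each library left out in turn, small changes turned sign within their ranges, which ran from -0.12 to 0.04 for *S100a16* in I/M lenses and, in KO lenses, from -0.11 to 0.01 for *S100a4*, -0.1 to 0.05 for *S100a10*, -0.13 to 0.33 for *S100a13* and -0.14 to 0.05 for *S100b*. The causes were not tested. Replicate numbers did not pair the samples (same-numbered libraries correlated at a median of -0.055 over 18 pairs, and 2 of 12 libraries were closest to one of their own number), and the replicate block moved all calls in M/M against wild-type from 5637 to 5514 and changed no count of S100 genes by over 1.5 times, with 5 changed in M/M as before. Depth limits *S100a13* and *S100b*, with fewer than 10 counts in each wild-type library.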
